A study of Mus musculus with 6 samples.

Results

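Ubiquitin ligases attach the small protein ubiquitin to other proteins, and deubiquitinases take it off again. The genes described here were picked by symbol from a table of transcripts in mouse CD8+ T cells: every symbol that starts with Usp, Ube, Ubr, Fbx, Rnf, Trim, Cul, Herc, Klhl, Otud or Mindy, with Usp1 left out by the rule. This gave 21 of the 1037 listed transcripts, which belong to 18 of the 847 genes with a matched symbol. The Rnf symbols gave 8 transcripts, Usp gave 5, Trim 4, Mindy 2, and Fbx and Ubr 1 each. The prefixes Ube, Cul, Herc, Klhl and Otud gave 0. The label holds for 17 of the 18 genes, with Fbxl20 counted as part of a ligase. Usp6nl carries the Usp prefix because its protein resembles a part of USP6, but it encodes a GTPase-activating protein for Rab GTPases and no ubiquitin enzyme, and it is included in every count that is not given as without it.

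The samples were primary wildtype CD8+ T cells from mouse spleen, kept in culture and given either daunorubicin (DNR), a DNA-binding anthracycline that blocks topoisomerase II, or its solvent dimethyl sulfoxide (DMSO), for 2 h. Each treatment has 3 samples, called biological replicates. Whether they came from separate mice is not given in the sources used here, so p-values measure the spread between these samples, which may be technical. Values are FPKM, which scale fragments to transcript length and sequencing depth. A change is the mean of the DNR samples minus that of the DMSO samples in log2(FPKM + 1), a scale that shrinks the changes of low transcripts.

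In the ubiquitin pathway, an activating enzyme and a conjugating enzyme hand ubiquitin to a ligase, which picks the substrate. RING ligases (Rnf and Trim) bring the conjugating enzyme and substrate together, RBR ligases such as Rnf19b carry the ubiquitin themselves first, and F-box proteins (Fbx) are the exchangeable substrate receptors of cullin ligases. In T cells such ligases set the threshold of receptor signalling, and after DNA damage ubiquitin marks on chromatin help to recruit repair factors.

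By its name the table is the matrix of a heatmap, and 99.7% of the 388 transcripts tested differed between the groups (limma, adjusted p under 0.05), so it was in all likelihood selected for a difference between these samples. A call on a member therefore says which way a listed transcript went in these samples and by how much, and its being called is no evidence about ubiquitin genes as a class. Under such a selection the changes may be overstated, and an adjusted p gives no false discovery rate over all transcripts. The columns carry short codes, and the codes with D were read as DNR because those with O match the DMSO descriptions. Every direction rests on that reading. FPKM of transcripts of 1 gene share reads, so an estimate that failed can also appear as 0, and read depth is unknown. Of 12 fixed CD8 T cell markers 0 are listed, so the cell type could not be checked from this table. Of 8 monocyte and macrophage markers 1 is listed, Csf1r, whose summed level ran from 58.45 to 63.23 FPKM after DMSO and from 69.62 to 79.11 in DNR. Of 7 B cell markers Spib and Ebf1 are listed, at 0 to 2.27 FPKM in sum in DMSO and 1.88 to 5.97 in DNR. Of 4 dendritic cell markers Itgax is listed, at 0.96 to 1.23 and 1.14 to 1.51 FPKM. For CD4 T cells, natural killer cells, neutrophils, and erythroid cells and platelets, 0 markers are listed. In bulk samples such as these, fewer cells of a type and less RNA per cell cannot be told apart. Whether other cells had a part in the member values was not tested.

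The bases before the gene start are shown for 4 members of both directions, to show what their promoters have in common. They are the members whose 250 bases upstream lie wholly outside the span of the gene. The sequences come from RefSeq on GRCm38.p6, which gave a promoter for 17 of the 18 genes, and read 5′ to 3′ on the strand of the gene. Capitals mark the GC box, GGGCGG on either strand. Rnf25 and Rnf19b were higher in DNR, Usp6nl was lower, and Trim32 was listed at 0 in DNR.
Rnf25, chr1:74601398-74601647, minus strand: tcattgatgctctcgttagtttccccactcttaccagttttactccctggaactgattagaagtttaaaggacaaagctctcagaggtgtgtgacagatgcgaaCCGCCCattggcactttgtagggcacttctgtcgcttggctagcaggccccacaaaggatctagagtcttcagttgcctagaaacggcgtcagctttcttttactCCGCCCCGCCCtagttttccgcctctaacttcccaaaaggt
Rnf19b, chr4:129057894-129058143, plus strand: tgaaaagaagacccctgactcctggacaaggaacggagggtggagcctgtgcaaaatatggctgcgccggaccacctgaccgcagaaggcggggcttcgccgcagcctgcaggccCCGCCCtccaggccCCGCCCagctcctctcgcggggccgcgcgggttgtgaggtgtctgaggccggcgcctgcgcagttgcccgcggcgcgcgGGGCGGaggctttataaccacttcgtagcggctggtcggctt
Usp6nl, chr2:6322507-6322756, plus strand: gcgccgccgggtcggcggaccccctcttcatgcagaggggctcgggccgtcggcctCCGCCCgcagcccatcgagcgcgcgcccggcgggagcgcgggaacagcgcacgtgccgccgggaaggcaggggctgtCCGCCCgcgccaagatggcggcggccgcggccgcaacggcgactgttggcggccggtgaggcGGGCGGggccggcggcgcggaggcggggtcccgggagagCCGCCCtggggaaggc
Trim32, chr4:65604736-65604985, plus strand: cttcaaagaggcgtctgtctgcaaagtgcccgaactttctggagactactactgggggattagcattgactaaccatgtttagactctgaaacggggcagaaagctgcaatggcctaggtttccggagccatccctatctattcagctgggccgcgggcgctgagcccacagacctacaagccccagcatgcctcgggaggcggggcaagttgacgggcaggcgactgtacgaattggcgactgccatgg
The windows of Rnf25 and Rnf19b hold 3 GC boxes each, that of Usp6nl holds 4 and that of Trim32 holds 0. Over the 10 windows of the 9 tested member genes, 9 hold at least 1 GC box, and the exception is Rnf20. The Rnf20 window (chromosome 4, 49638375 to 49638624) lies inside the gene, so it does not show the bases before the gene start. The windows of Usp34, Fbxl20 and 1 of Usp6nl also lie inside the gene, and those of Mindy3, Rnf13 and Rnf149 overlap its end or start. Of the 10, 2 are windows of Usp6nl, and both hold it. The share was 32.7% of all 32851 promoters, 64.0% of 150 windows of tested genes that were higher in DNR and 62.6% of 198 windows of those that were lower. The member windows ranged from 40.0% to 82.0% in G and C, with a median of 64.0%, against 61.8% for the higher genes and 62.0% for the lower ones. GC boxes thus stood before members of both directions. The CCAAT box (CCAAT or its complement) was in the windows of Fbxl20, Rnf13 and Rnf25 and in 33.8% of all promoters. The NRF1 core TGCGCA was in those of Rnf149 and Rnf19b and in 6.43% of all, and the ETS core CCGGAA in that of Mindy3 and in 12% of all. The TATA box TATAAA was in the windows of Rnf19b and Rnf20, the latter inside the gene, and in 12.4% of all. The AP-1 site TGANTCA and the CRE TGACGTCA were in 0 of the 10 windows, with shares of 6.75% and 1.55% of all promoters. Both strands were searched, and the motifs do not contain each other. A match is only a run of letters in these windows.

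Of the 21 transcripts, 11 of 9 genes reached 1 FPKM in at least 3 samples and were tested. Transcripts of 4 genes were higher in DNR (Mindy3, Rnf25, Rnf149 and Rnf19b) and 7 transcripts of 6 genes were lower (another Mindy3 transcript, Rnf13, Fbxl20, Rnf20, Usp34 and both of Usp6nl). This is 36.4% higher and 63.6% lower, beside 43.0% higher and 56.7% lower of all tested transcripts (limma, adjusted p under 0.05). Without Usp6nl, 4 of 9 were higher and 5 lower. The groups did not overlap for 11 of the 11, beside 99.7% of all tested transcripts. Of all calls, 43.2% were higher (167, with 220 lower), and 61.2% were higher once all samples were aligned on 1 median (median alignment), where 167 were higher and 106 lower. This lifts the DNR samples by 0.18 relative to DMSO on the log2 scale, so each transcript change moves up by that amount. Falls had to shrink and rises to grow. The median is that of transcripts of which 56.7% were lower, so it is no neutral reference. Under that alignment the member calls were 4 higher and 5 lower. The 9 transcripts above 0 in all 6 samples had a median change of -0.34, and the 7 of them that are not Usp6nl one of -0.29, beside -0.22 for the 332 such transcripts of the table. Of the 11, both Mindy3 transcripts and Rnf13 passed the filter through 1 group alone and so had to differ. The counts include these transcripts and the member medians include Rnf13, so counts and medians are descriptions.

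**Figure D1:**
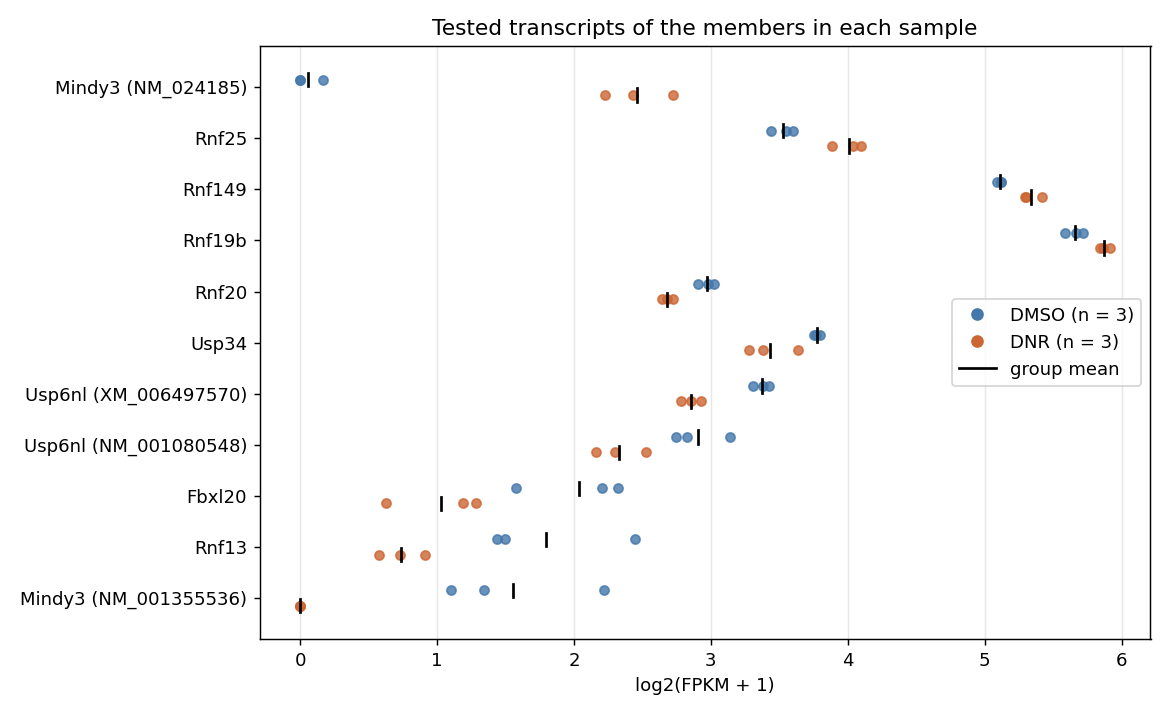
Level of each of the 11 tested member transcripts, with log2(FPKM + 1) on the x axis, 1 point per sample (blue DMSO, orange DNR, n = 3 each) and a black bar at the group mean. The 2 groups are apart in each row, by the most in the rows of Mindy3, and Rnf19b and Rnf149 have the highest levels and close groups.

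The members that rose and were above 0 in every sample are 3 RING-type ligase genes at moderate to high levels. Rnf25 encodes a RING ligase that acts at stalled ribosomes (chromosome 1, 74593748 to 74601397, GRCm38.p6; transcript NM_021313 of 10 exons). It stood at 11.10, 9.85 and 10.69 FPKM after DMSO and rose to 15.42, 13.78 and 16.14 after DNR. The gap between the groups was wider than the range within either of them. The means were 10.5 ± 0.64 and 15.1 ± 1.2 FPKM (SD, n = 3), a ratio of 1.43, and the log2 change was 0.48 ± 0.08 (SE; limma, adjusted p = 0.0028).

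Rnf149 encodes a membrane-bound RING ligase of the protease-associated domain family (chromosome 1, 39551294 to 39577439; NM_001033135, 7 exons). Its level was 33.10, 33.75 and 33.85 FPKM after DMSO and 38.37, 38.33 and 41.75 after DNR. The DMSO samples lay within 1 FPKM of each other, and DNR sample 3 stood above the other two. The ratio of means was 1.18 and the log2 change 0.23 ± 0.05 (SE; limma, adjusted p = 0.0041).

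Rnf19b encodes an RBR ligase known from the lytic granules of killer lymphocytes (chromosome 4, 129058144 to 129084526; NM_029219, 9 exons). It was the most abundant member, at 51.62, 49.74 and 47.11 FPKM after DMSO and 56.28, 57.21 and 59.38 after DNR, and its level was above that of 85.6% of tested transcripts or equal to it. The ratio of means was 1.16 and the log2 change 0.22 ± 0.04 (SE; limma, adjusted p = 0.0042). The gap between the groups was about as wide as the range within the DMSO samples. Csf1r rose in the same samples by 0.25 ± 0.06 (SE; limma, adjusted p = 0.0057), close to the rises of Rnf149 and Rnf19b, and its part in them was not tested. Those 2 rises were 0.41 and 0.40 after median alignment. With quantile normalization Rnf149 rose by 0.35 and Rnf19b by 0.20.

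Mindy3 is the member with the largest change, and its listed transcripts went opposite ways. Over the whole table, 20 genes had tested transcripts called in both directions, Mindy3 among them. The gene encodes a cysteine-type deubiquitinase of the MINDY family (chromosome 2, 12347263 to 12419489), and RefSeq holds 19 transcripts of it, 2 of which are in the table. NM_024185, a coding transcript of 15 exons, was listed at 0, 0 and 0.12 FPKM after DMSO and at 5.61, 3.68 and 4.38 after DNR. NM_001355536 stood at 1.14, 3.66 and 1.54 FPKM after DMSO and 0 in each DNR sample. Each of them reached 1 FPKM only in the group where it is high, so it could enter the test only with a difference, and no p is given for either. In DMSO, NM_001355536 made up 100%, 100% and 92.8% of the listed sum, and in DNR 0% in each sample.

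The sum of both Mindy3 transcripts was 1.14, 3.66 and 1.66 FPKM after DMSO and 5.61, 3.68 and 4.38 after DNR. DMSO sample 2 came within 0.02 FPKM of DNR sample 2, so the sums barely separated, at 2.15 ± 1.3 and 4.56 ± 0.98 FPKM (SD, n = 3). The log2 change of the sum was 0.88 ± 0.30 (SE; limma on gene sums, adjusted p = 0.026). It did not pass without DMSO replicate 1 (adjusted p = 0.075 by limma), without DMSO replicate 3 (0.082), without DNR replicate 1 (0.079) or without DNR replicate 3 (0.075), nor when low gene sums were kept in (0.056). The sum covers 2 of 19 transcripts and is not the level of the gene.

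**Figure D2:**
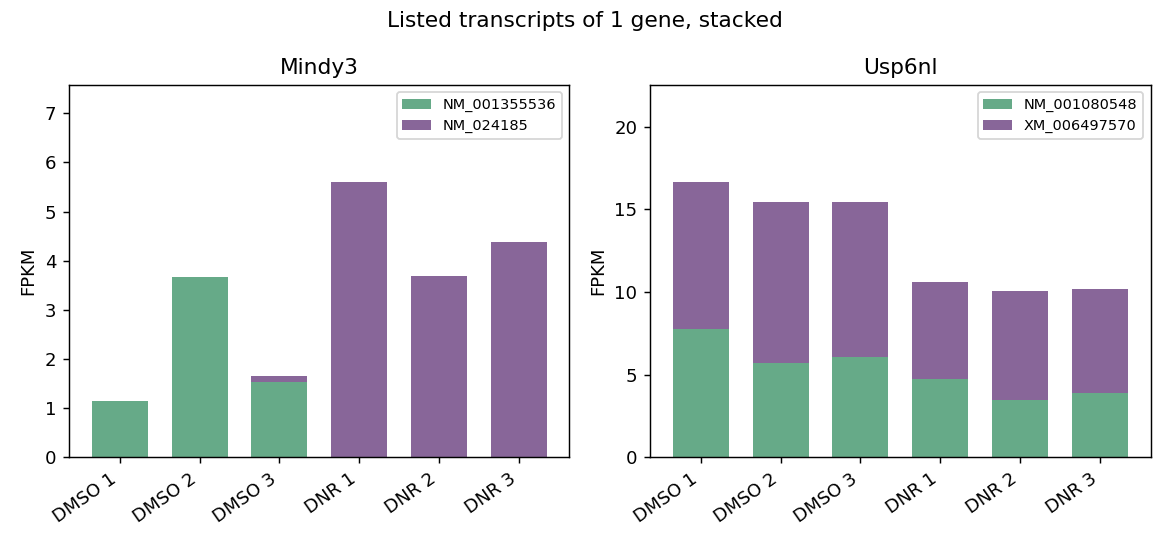
FPKM of the 2 listed transcripts of Mindy3 (left) and of Usp6nl (right), stacked, with 1 bar for each of the 6 samples on the x axis. The Mindy3 bars change from NM_001355536 in DMSO to NM_024185 in DNR, while both Usp6nl transcripts are lower in the DNR samples.

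Usp6nl, the Rab regulator that carries the Usp prefix but encodes no ubiquitin enzyme (chromosome 2, 6322757 to 6448296), fell in both listed transcripts. XM_006497570, a predicted model, was at 8.89, 9.76 and 9.39 FPKM after DMSO and 5.86, 6.61 and 6.25 after DNR (log2 change -0.52 ± 0.09, SE; limma, adjusted p = 0.0027). NM_001080548, of 15 exons, was at 7.80, 5.70 and 6.09 FPKM after DMSO and 4.76, 3.47 and 3.91 after DNR (log2 change -0.58 ± 0.15, SE; limma, adjusted p = 0.0083). Each DNR sample lay below each DMSO sample in both transcripts. The predicted model took 53.3% to 63.1% of the sum in DMSO and 55.2% to 65.6% in DNR, ranges that overlap. The sum fell from 16.69, 15.46 and 15.48 to 10.62, 10.08 and 10.16 FPKM, a log2 change of -0.58 ± 0.06 (SE; limma on gene sums, adjusted p = 0.00082). After median alignment the change of XM_006497570 was -0.33 (limma, adjusted p = 0.022). That of NM_001080548 was -0.39, just under the threshold (limma, adjusted p = 0.045).

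Among the genes of ligases or ligase parts lower in DNR, Rnf13 and Fbxl20 had the largest changes and low levels. Rnf13 encodes a membrane-bound RING ligase of the same family as Rnf149 (chromosome 3, 57736044 to 57835425; NM_001113413, 10 exons). It was at 1.71, 4.45 and 1.82 FPKM after DMSO and at 0.66, 0.49 and 0.88 after DNR (log2 change -1.05 ± 0.28, SE). It reached 1 FPKM in the DMSO samples alone, so the filter let it in through the group where it is high, and no p is given. DMSO sample 2 was the high one, as it was for the Mindy3 transcript listed at 0 in DNR. Fbxl20, an F-box substrate receptor (chromosome 11, 98082554 to 98150921; predicted model XM_030246362), was at 4, 1.98 and 3.62 FPKM after DMSO and 0.54, 1.43 and 1.28 after DNR (log2 change -1.0 ± 0.25, SE; limma, adjusted p = 0.0071). For Fbxl20, DMSO sample 2 was the low one. With a pseudocount of 0.1 in place of 1, these 2 changes were -1.72 and -1.52.

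Rnf20 and Usp34 fell by less and depended on scaling. Rnf20 encodes a RING ligase that adds ubiquitin to a core histone during transcription (chromosome 4, 49632005 to 49656887; predicted model XM_030253081). Its level was 7.14, 6.51 and 6.88 FPKM after DMSO and 5.60, 5.25 and 5.39 after DNR, a ratio of means of 0.79 (log2 change -0.29 ± 0.09, SE; limma, adjusted p = 0.018). The groups were apart, yet the call was lost without DMSO replicate 1 (limma, adjusted p = 0.067). It was also lost after median alignment, at -0.11 (limma, adjusted p = 0.38), but held with quantile normalization, at -0.21 (limma, adjusted p = 0.031). Usp34, a large deubiquitinase of the Wnt pathway (chromosome 11, 23303185 to 23490560; predicted model XM_030245633), was at 12.59, 12.91 and 12.48 FPKM after DMSO and 8.72, 9.40 and 11.43 after DNR (log2 change -0.34 ± 0.10, SE; limma, adjusted p = 0.014). DNR sample 3 was the nearest to the DMSO samples. The change was -0.16 both after median alignment (limma, adjusted p = 0.2) and with quantile normalization (limma, adjusted p = 0.16).

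**Figure D3:**
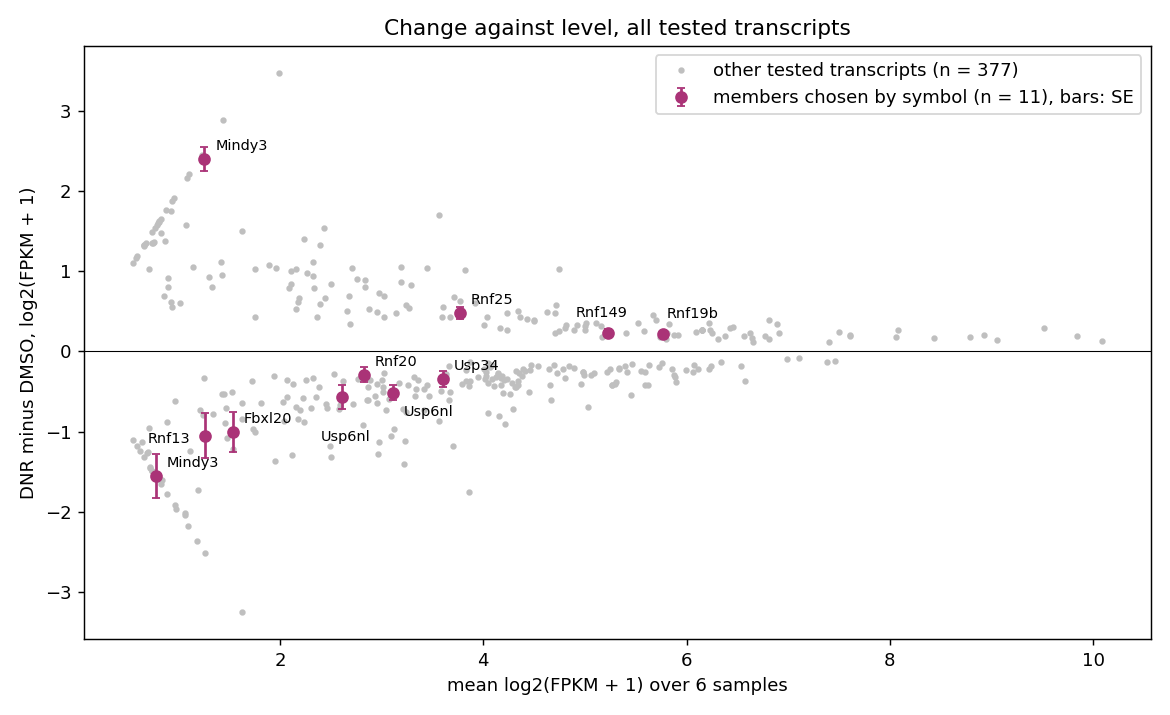
Change between DNR and DMSO on the y axis (log2 scale) against the mean log2(FPKM + 1) over 6 samples on the x axis for the 388 tested transcripts, with the 11 member transcripts in purple and their SE as bars. The members lie within the 2 bands of the other transcripts, with large changes at low levels and small ones at high levels, as for Rnf149 and Rnf19b.

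Summed over listed transcripts, 4 member genes were higher (Mindy3, Rnf25, Rnf149 and Rnf19b) and 5 were lower (Fbxl20, Rnf13, Rnf20, Usp34 and Usp6nl), 9 of the 9 tested (limma on gene sums, adjusted p under 0.05), of which the Rnf13 sum is the 1 transcript that had to differ. Without Usp6nl, 4 of 8 were higher and 4 lower. Of all 350 gene sums tested, 39.1% were higher and 51.4% lower, and 90.6% were called in either direction. The 3 genes whose only tested transcript rose span 7.7 kb (Rnf25), 26.1 kb (Rnf149) and 26.4 kb (Rnf19b). The 5 that fell span 24.9 kb (Rnf20), 68.4 kb (Fbxl20), 99.4 kb (Rnf13), 125.5 kb (Usp6nl) and 187.4 kb (Usp34). Mindy3, with calls both ways, spans 72.2 kb. The 138 genes of the whole table with calls up alone had a median span of 17.7 kb, and the 179 with calls down alone one of 71.2 kb. Rnf20 is the shortest of the tested members that fell and shorter than 2 of those that rose. Trim32, listed at 0 in DNR but below the filter, spans 11.3 kb.

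**Figure D4:**
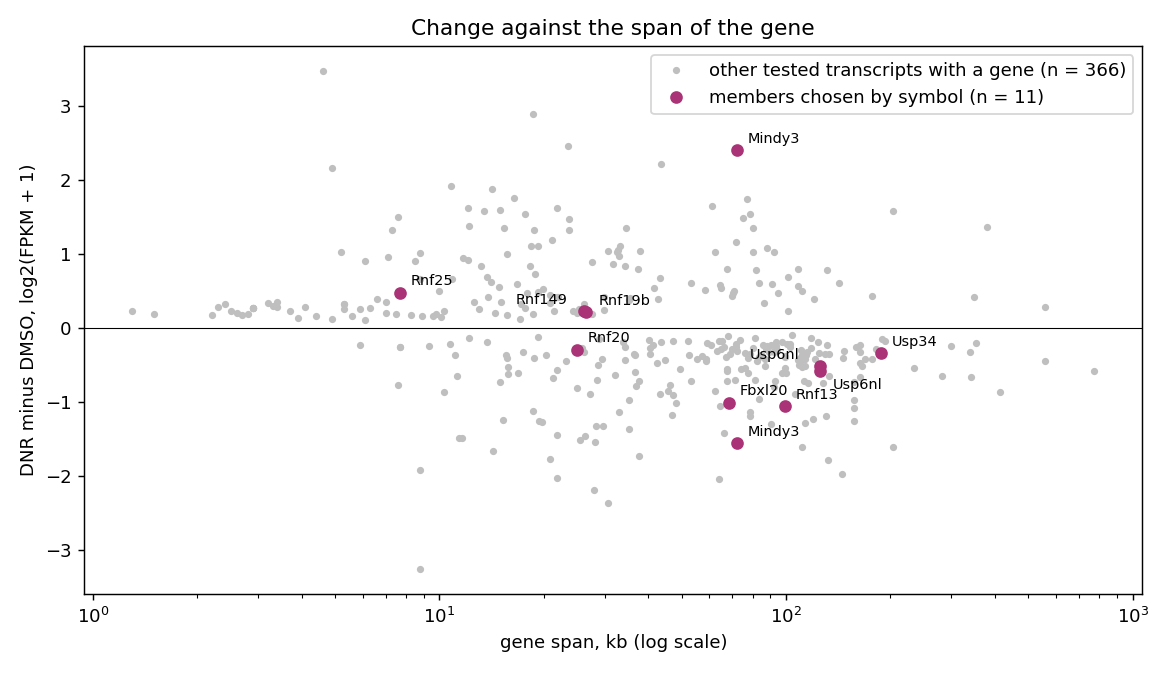
Change between DNR and DMSO on the y axis (log2 scale) against the span of the gene in kb on a log x axis, with the 11 member transcripts in purple and the other tested transcripts with a matched gene in grey. Rnf25, Rnf149 and Rnf19b lie above 0 at spans up to 26.4 kb, and the members from 68.4 kb up lie below 0 apart from 1 transcript of Mindy3.

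The other 10 transcripts, of 9 genes, stayed below the filter. Trim32, a RING ligase of the TRIM family (chromosome 4, 65604986 to 65616240; NM_053084, 2 exons), was just outside it, at 1.98, 1.02 and 0.75 FPKM after DMSO and at 0 in each DNR sample. The lowest tested member, NM_001355536 of Mindy3, had 1.14 FPKM in its lowest DMSO sample. With low transcripts kept in, Trim32 was lower in DNR (limma, adjusted p = 0.013) and the other 9 did not pass, with adjusted p from 0.11 to 0.34. In that fit 242 of all 1037 transcripts were higher and 324 lower, so a single call among these says nothing about ubiquitin genes.

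Rnf170, Trim37 and Usp32 were above 0 in part of the DMSO samples and listed at 0 throughout DNR. Rnf170, a ligase of the endoplasmic reticulum, was at 0, 1.72 and 1.64 FPKM after DMSO. Trim37, a RING ligase linked to centrosomes, was at 3.46, 0 and 0.99 FPKM, and the deubiquitinase gene Usp32 was at 0.62, 0 and 2.12 FPKM. In each case 1 of the DMSO samples was at 0 as well, sample 1 for Rnf170 and sample 2 for Trim37 and Usp32. Transcripts with values in 2 samples of 1 group were 14.3% of the members (3 of 21) and 4.34% of the table. Those above 0 throughout DMSO and at 0 throughout DNR, 1 of Mindy3 and that of Trim32, were 9.52% of the members (2 of 21) and 11.8% of the table.

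The remaining 6 transcripts had a value above 0 in 1 sample alone. Usp19, a deubiquitinase anchored in the endoplasmic reticulum, had 3.15 FPKM in DMSO sample 1. The others had it in a DNR sample. Trim26, whose 2 entries hold identical values and count as 1 gene, had 3.15 FPKM in DNR sample 1, and the RBR ligase gene Rnf216 had 1.61 in DNR sample 2. Rnf213, which encodes a very large ligase with a motor domain, and Ubr2, a ligase that recognises the starts of proteins, had 0.68 and 0.70 in DNR sample 3. Such single values made up 28.6% of the members and 31.4% of the whole table, and a value in a single sample gives no comparison of the groups.

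**Figure D5:**
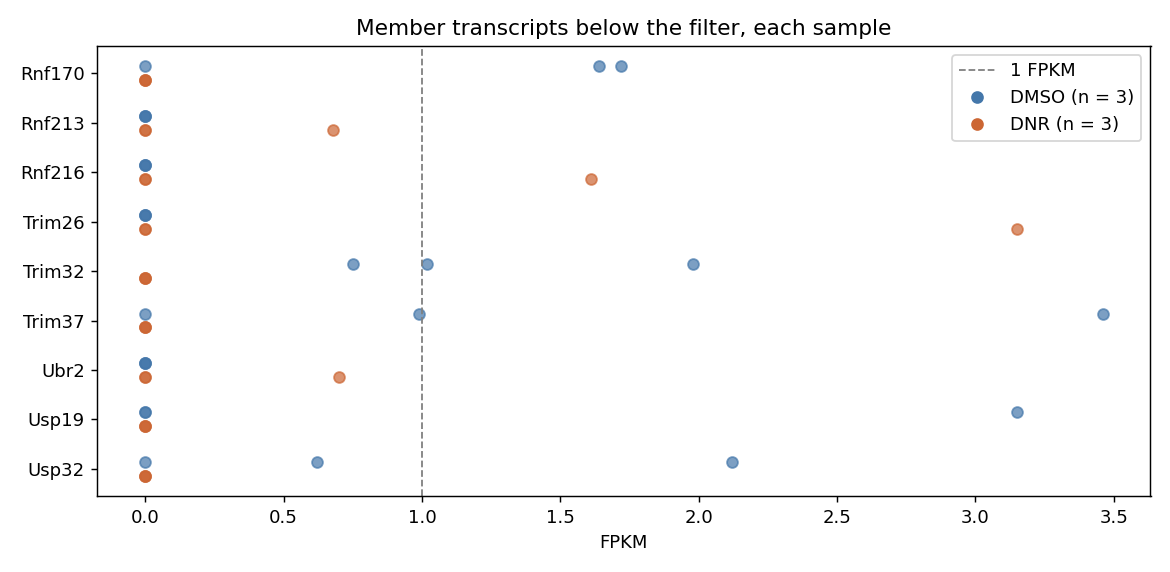
FPKM on the x axis of the 9 member genes below the filter, 1 point per sample (blue DMSO, orange DNR, n = 3 each), with 1 FPKM as a dashed line. Trim32 is the row with 3 DMSO samples above 0, and most other points lie at 0.

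Other genes of the ubiquitin-proteasome system, from a list of 254 symbols outside these prefixes, gave 29 listed transcripts of 26 genes, and 10 were tested. Of these 5 were higher and 5 lower, beside 43.0% higher and 56.7% lower of all tested transcripts. The 42 proteasome subunit and activator symbols of that list (Psm) had 0 listed genes. The higher ones were Bag6, a chaperone that steers failed membrane proteins to degradation, Dtx3, a RING ligase of the Deltex family, Dcaf11, a substrate receptor of a cullin ligase, Ubap2l, a ubiquitin-associated RNA-binding protein, and Mdm2, the ligase that restrains p53. Dtx3 was at 3.43, 3.14 and 5.63 FPKM after DMSO and 8.73, 8.98 and 7.24 after DNR (log2 change 0.91 ± 0.20, SE; limma, adjusted p = 0.0048). Bag6 was at 0, 0.13 and 0.28 FPKM after DMSO and 1.72, 1.14 and 3.34 after DNR, and it too passed the filter through 1 group alone. Dcaf11, Ubap2l and Mdm2 rose by 0.66, 0.61 and 0.43 on the log2 scale (limma, adjusted p = 0.0043, 0.0063 and 0.0061).

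The lower ones were Cdc27, a subunit of the anaphase-promoting complex, the signalling ligase Traf6, the cullin adaptor Socs7, the inhibitor-of-apoptosis ligase Birc3 and the SUMO ligase Pias1. Cdc27 fell from 3.68, 4.26 and 3.42 to 2.25, 1.03 and 1.03 FPKM (log2 change -1.01 ± 0.21, SE; limma, adjusted p = 0.0042). Traf6, at 8.82, 7.85 and 8.58 FPKM after DMSO and 5.57, 6.80 and 5.39 after DNR, had a log2 change of -0.45. The changes of Socs7, Birc3 and Pias1 were -0.35, -0.27 and -0.25. The falls of Traf6, Socs7, Birc3 and Pias1 did not pass after median alignment (limma, adjusted p = 0.096, 0.21, 0.28 and 0.43). The alignment moves every change upward, so falls had to shrink and rises to grow. It left 1 lower call, Cdc27, while the 5 higher calls passed, among them Bag6, which had to differ. Of all tested transcripts, 167 were higher and 106 lower under that alignment.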

How the data were processed

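RNA was sequenced from 6 samples, 3 DMSO and 3 DNR. The authors deposited log2(FPKM + 1) for 1037 transcripts named by RefSeq accession. The scale was read from the values: 2 to the value minus 1 gave 2 decimals in 100% of cells within 1e-06 FPKM. Builds GRCm38 and mm10 are named in the submitters' processing notes, and the SMARTER mRNA kit in the labels' protocols. The aligner, the quantifier and the rule for listing transcripts are all not given in the sources used here. Accessions were looked up in RefSeq genes on GRCm38.p6 (1013 matched, 24 not). Transcript structures are from GENCODE, matched for 10 of the 13 member transcripts with a reviewed accession.

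Transcripts at 1 FPKM or more in at least 3 samples were compared with limma 3.58.1 in R 4.3.3 (eBayes with trend, treatment alone, two-sided, Benjamini-Hochberg over all 388, threshold 0.05), without rescaling. Gene sums took identical entries once. The test was checked on simulated data in which only part of the transcripts changed. That check cannot give error rates for this table, where 99.7% of the tested transcripts were called. The members and lists were chosen with earlier results of these data known. By rule, every gene with a tested transcript is named, as are untested members at 0 in 1 group and above 0 throughout the other; the other low members were named after their values were seen. Alternatives were another pseudocount, filters, scalings, a replicate block, no trend and each sample left out. FPKM keep no depth, so no counting interval is given.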

Additional observations from a re-analysis of the deposited data

How the results depend on the processing

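No tested member transcript or gene sum changed direction in any of the 13 alternatives that gave it a value. For most of them this was fixed in advance. The filters, the fit without trend and the replicate block leave the change as it is. With groups that do not overlap, another pseudocount or leaving out 1 sample cannot reverse it. Only median alignment and quantile normalization could have done so. Fbxl20, Rnf13 and Mindy3 had values in 12 alternatives, since a filter of 5 FPKM removed them. The 10 untested transcripts were fitted only with no filter. Counts here include Usp6nl. Rnf25, Rnf149 and Rnf19b passed wherever they were tested, and the lower ones lost calls as given with Rnf20 and Usp34. A filter of 5 FPKM, which leaves fewer transcripts to test, gave 4 lower member transcripts in place of 7, 3 lower member gene sums in place of 5, 2 higher transcripts of the other ubiquitin genes in place of 5, and 111 higher transcripts in the table in place of 167. With no filter, 9 of the other ubiquitin transcripts were lower in place of 5, since more were tested. After median alignment, which moves every change upward, 3 member gene sums, 1 other ubiquitin transcript and 106 transcripts of the table were lower. With quantile normalization 2 other ubiquitin transcripts were lower, and the cause of that was not tested. Leaving out 1 sample gave 6 to 7 lower and 4 higher member transcripts, and 4 to 5 lower and 3 to 4 higher member gene sums. Of all 388 tested transcripts, 209 to 216 were then lower and 166 to 167 higher, so the whole table was as steady as the members. With the replicate block, 4 member transcripts were higher and 7 lower, as without it, beside 167 higher and 218 lower of all 388. Under that block 3 member gene sums were higher, since the Mindy3 sum did not pass (limma, adjusted p = 0.056). Same-numbered samples share only a number: their deviations from the group means correlated at -0.055, 0.046 and 0.043 over the tested transcripts. Depth is unknown, so changes of transcripts near 1 FPKM are the least certain.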
